A study of Mus musculus with 5 samples.

Results

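The mouse potassium channel genes were followed through a CUT&RUN profile of histone H3 lysine 4 (H3K4) chromatin in cardiomyocytes of newborn mice. Members were chosen by symbol alone, as every gene whose name is Kcn followed by a letter and a digit, and each gene was represented by the peak with the highest mean signal over the 4 H3K4 libraries. The deposited table held 59 such genes among 25017 gene symbols, with 197 of its 85275 peaks. Of the 59 highest peaks, 55 reached 1 CPM (reads scaled to a fixed total per library) in at least 2 of the 4 libraries and were tested. They stand for 54 channel genes and for Kcnq1ot1, a noncoding RNA gene that the symbol rule takes in and that is described apart. RefSeq lists 83 mouse genes of this symbol pattern, and the 24 that are not among the 59 were not analysed here.

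CUT&RUN tethers a nuclease to an antibody, so that the DNA around the bound mark is cut free and sequenced. Heart cells isolated at postnatal day 1 received a control hairpin (Control-ShRNA-IL, 2 libraries) or a hairpin against Kdm5b (Kdm5b-ShRNA-IL, 2 libraries) for 72 h, and 1 negative control library also came from Control-ShRNA-IL cells. Kdm5b encodes an enzyme that removes methyl groups from H3K4, and the title of the series asks how it controls cell-cycle genes. Neither the mouse strain, nor the meaning of "IL", nor which methylation state of H3K4 was bound, nor the negative control antibody is stated in the labels. The label for the cells carries a different number, P1 to P5, in each sample, while the growth protocol gives day 1 for all. If that number were an age, age and treatment could not be told apart.

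Potassium channels let potassium ions cross the cell membrane, and in heart muscle they end the action potential and hold the resting potential. Voltage-gated members (Kcna to Kcnd, Kcnh and Kcnq) open on depolarisation, inward rectifiers (Kcnj) set the resting potential or respond to G proteins and ATP, tandem-pore-domain members (Kcnk) carry leak currents, and Kcnn and Kcnt members respond to intracellular calcium and sodium. Kcne genes encode small auxiliary subunits, and Kcnf, Kcng, Kcns and Kcnv genes encode subunits that work only in complexes with other voltage-gated subunits. Methylated H3K4 marks promoters and enhancers, and its level is not a measure of RNA or current.

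Reads in peaks ranged from 18710132 to 31068085 in the H3K4 libraries and came to 3784381 in the negative control, where 1 read was worth 0.264 CPM. Each library is scaled to its own total, which leaves background levels unequal. Narrow peaks (under 500 bp) with less signal than the negative control held 3.64% to 6.65% of H3K4 reads and 21.9% of negative control reads. Libraries are called 3 and 4 after their columns, and nothing states that they came from separate cultures or animals, so the spread behind each p-value is that of these libraries alone and may be technical. Of 6 cardiomyocyte markers 5 were measured, and 4 of those 5 stood above the negative control in the controls. Their summed level was 711 and 717 CPM in the controls and 642 and 637 CPM in the knockdown libraries, and 2 of 5 were called lower. Summed levels of the fibroblast markers went from 402 and 377 CPM to 470.2 and 469 CPM with 4 of 6 called higher, those of the epicardial markers from 188 and 176 CPM to 238 and 242 CPM with 5 of 6 called higher, and those of the smooth muscle markers from 264 and 248 CPM to 306 and 317 CPM with 3 of 5 called higher. In the negative control these sums were 735 CPM (cardiomyocyte), 511 CPM (fibroblast), 513 CPM (epicardial) and 230 CPM (smooth muscle). Of the highest peaks of all genes 3.40% were called higher and 1.98% lower. Scaled on narrow background peaks, or fitted without limma's trend, 0 of all tested peaks were called. The 6 endothelial, 4 neuronal, 3 macrophage and blood and 1 glial markers measured had 0 calls in limma's test, and no measured marker was at 0. In cells taken in bulk, fewer cells of a type and less mark per cell cannot be told apart, and the part of these marker shifts in the results below was not tested.

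In the control cells the channel genes mostly stood at or below the negative control. The median member had 20.9 CPM in the controls, 18.9 CPM after knockdown and 38.6 CPM in the negative control, and the median log2 ratio of control to negative control, each plus 1 CPM, was -1.02. For comparison, that median was -0.43 over the highest peaks of all 21835 genes with a tested highest peak. The control mean exceeded the negative control at 4 of 55 members (7.27%), which compares with 43.8% of the highest peaks of all genes and 17.3% of all tested peaks. No member stood at least 2-fold above it, a level that 3180 of the 21835 highest peaks and 5.55% of all tested peaks reached. At 28 members the control mean was at least 2-fold below the negative control. This share of 50.9% lies between the 36.6% of the highest peaks of all genes and the 60.2% of all tested peaks. With 1 negative control library these ratios have no replicate error. Under median centring of the 5 libraries or TMM scaling of them the members' median log2 ratio turns to 0.28 and 0.21, so the side on which the family falls depends on the scaling.

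The 4 members above the negative control were Kcnq5, Kcnq1ot1, Kcnh2 and Kcnd2. Kcnq5 encodes a subunit of slowly activating, non-inactivating channels and had the highest signal of the family, with 120.5 and 113 CPM in the controls, 106 and 111 CPM after knockdown and 67.9 CPM in the negative control. Both knockdown libraries were below both controls there, yet the difference did not pass (log2 fold change -0.10, SE 0.05, limma adjusted p = 0.32). Kcnd2, which encodes a subunit of the fast transient outward current, had 49.1 and 52.3 CPM, then 47.0 and 53.4 CPM, against 41.2 CPM in the negative control. Its groups overlapped.

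Per kilobase of peak the order was led by Kcnq5 (27.2 CPM per kb in the controls), Kcnd2 (26.2), Kcnq1 (22.7) and Kcnn1 (19.8). Kcnh2, with the widest peak of the family (5622 bp), had 17.2 CPM per kb. At the low end stood Kcnj1, a potassium channel gene of the kidney, with 3.57 CPM per kb, and Kcnn4, a calcium-activated channel gene of blood cells and epithelia, with 3.46. The control libraries of Kcnq5 and Kcnd2 overlapped on this scale. Peak widths were set by the authors' peak calling.

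Cardiac channels had higher signal and wider peaks than neuronal channels. Of 18 genes listed as cardiac 14 were in the table, and all 14 were tested. Of 24 listed as neuronal 15 were in the table, and 14 were tested. The cardiac median was 42.4 CPM in the controls on peaks with a median width of 2215 bp, and the neuronal median was 10.8 CPM on peaks of 740 bp. Per kilobase the medians were 16.4 and 14.6 CPM. Relative to the negative control the median log2 ratio was -0.59 for cardiac and -1.41 for neuronal genes. The control mean was at least 2-fold below the negative control at 3 of 14 cardiac and 11 of 14 neuronal genes, and above it at 2 of 14 and 0 of 14. These are descriptions of lists that were drawn up with earlier results of these data known, and no test was run on them.

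**Figure D1:**
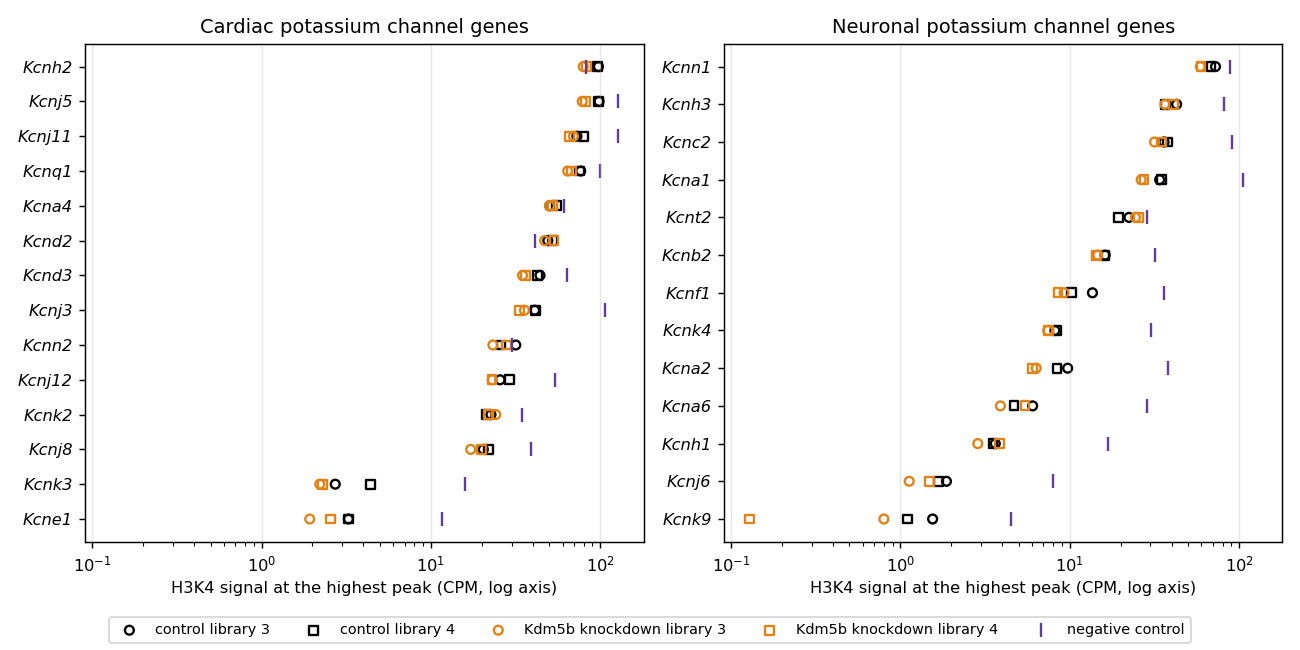
H3K4 signal (CPM, log axis) at the highest peak of the cardiac (left) and neuronal (right) channel genes, apart from any not reported here; circles and squares are libraries 3 and 4, black for control and orange for Kdm5b knockdown, and vertical ticks are the negative control. Only Kcnh2 and Kcnd2 have control means above the tick, and cardiac genes lie mostly above 10 CPM while neuronal genes spread down to Kcnk9.

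The lists were not uniform. Among cardiac genes the controls ranged from 98.0 CPM at Kcnj5 to 3.26 CPM at Kcne1, which encodes the auxiliary subunit of the slow delayed rectifier. Kcnk3, a leak channel gene expressed in atria and smooth muscle, was also low, with 2.73 and 4.42 CPM in the controls, 2.21 and 2.28 CPM after knockdown and 15.8 CPM in the negative control. Among neuronal genes Kcnn1, which encodes a calcium-activated channel of small conductance, reached 70.5 CPM, and Kcnk9, a leak channel gene of the brain, had 1.33 CPM. Kcnh3, a brain channel gene related to Kcnh2, had 42.8 and 36.7 CPM in the controls, 36.5 and 41.0 CPM after knockdown and 81.9 CPM in the negative control, and its groups overlapped. Kcnj6, which encodes a G protein-activated rectifier of neurons, had 1.87 and 1.68 CPM in the controls, 1.13 and 1.48 CPM after knockdown and 7.93 CPM in the negative control, on a peak of 300 bp.

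Promoter sequence was read to see whether these differences in level go with the CpG content of the genes. RefSeq windows from 250 bases before to 50 bases after a transcription start, on GRCm38.p6, were at hand for 42 of the 59 members, and where a gene had several the window with most CpG was used. The peaks are on GRCm39, so windows and peaks were not overlaid. Of the 4 windows printed here, Kcnh2, Kcnj5 and Kcnd3 are the cardiac genes whose signal was called lower after knockdown, and Kcnj6 is a neuronal gene with little signal. Each reads 5′ to 3′ on the strand of the gene, the minus strand for Kcnh2 (chr5:24329542-24329841), Kcnj5 (chr9:32344295-32344594) and Kcnj6 (chr16:94997647-94997946) and the plus strand for Kcnd3 (chr3:105451640-105451939), and capitals mark CpG dinucleotides.
Kcnh2: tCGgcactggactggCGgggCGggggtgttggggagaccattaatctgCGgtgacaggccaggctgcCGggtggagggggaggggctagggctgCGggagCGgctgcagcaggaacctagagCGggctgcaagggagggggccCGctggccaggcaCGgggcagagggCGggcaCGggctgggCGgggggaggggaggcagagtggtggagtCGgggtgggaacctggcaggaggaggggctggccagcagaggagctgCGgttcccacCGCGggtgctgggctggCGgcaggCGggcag
Kcnj5: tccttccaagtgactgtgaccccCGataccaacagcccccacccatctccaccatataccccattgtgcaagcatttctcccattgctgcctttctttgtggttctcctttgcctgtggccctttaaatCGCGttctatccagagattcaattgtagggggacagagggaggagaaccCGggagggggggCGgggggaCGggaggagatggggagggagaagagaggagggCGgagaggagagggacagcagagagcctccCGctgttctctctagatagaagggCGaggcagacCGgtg
Kcnd3: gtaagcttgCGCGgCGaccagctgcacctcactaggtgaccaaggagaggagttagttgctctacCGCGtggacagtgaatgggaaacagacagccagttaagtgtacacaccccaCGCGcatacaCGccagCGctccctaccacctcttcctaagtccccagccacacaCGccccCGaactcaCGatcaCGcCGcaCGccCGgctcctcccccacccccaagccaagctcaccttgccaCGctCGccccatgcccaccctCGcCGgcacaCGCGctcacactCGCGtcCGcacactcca
Kcnj6: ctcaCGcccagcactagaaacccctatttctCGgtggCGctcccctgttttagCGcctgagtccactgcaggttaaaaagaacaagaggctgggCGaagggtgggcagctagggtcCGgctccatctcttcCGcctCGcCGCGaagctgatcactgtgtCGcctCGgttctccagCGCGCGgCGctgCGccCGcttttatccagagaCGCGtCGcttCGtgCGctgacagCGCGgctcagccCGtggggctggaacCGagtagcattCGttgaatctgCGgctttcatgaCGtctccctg

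The windows hold 19 CpG at Kcnh2, 10 at Kcnj5, 25 at Kcnd3 and 30 at Kcnj6. Kcnj6 had the least signal of the 4. Its 1 peak (chr16:94628151-94628451, GRCm39) and its window (GRCm38.p6) were not placed on the same build, so that signal is not a reading of the window. Likewise for the other genes, here and in the correlations below, a window need not lie at its gene's highest peak. The median was 12 CpG over the 40 tested members with a window (range 2 to 49). It was 8 over the windows of all 27025 genes with one, whether or not they had a tested peak. Among the tested members it was 19 over 9 cardiac and 12 over 9 neuronal genes. Across the 39 channel genes Spearman's rho of CpG number was 0.32 with mean CPM, 0.22 with peak width and -0.09 with the fold change, given as a description of genes that share the same 4 libraries. On both strands, AGATAA, a motif of the GATA factors, was found in 1 of 40 member windows and TATAAA (the TATA box) in 1. A loose form of the MEF2 box, with any base allowed at its 4 central positions, was also found in 1. This loose form is its own reverse complement, TATAAA can overlap it, and its matches need not be MEF2 boxes. The shares over the same 27025 genes were 11.0%, 13.7% and 3.62% in the same order. The first pair of matches both lay at Kcnj15 and the match to the loose form at Kcnk4. A window of another tested member, left out because a different window of that gene had more CpG, also held AGATAA and TATAAA.

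After Kdm5b knockdown 7 of 55 members were called lower and 0 higher (limma, Benjamini-Hochberg adjusted p under 0.05 over all 58072 tested peaks). The 7 were the voltage-gated genes Kcna1, Kcnc4, Kcnd3 and Kcnh2, the rectifier gene Kcnj5 and the calcium-activated channel genes Kcnn1 and Kcnn3. They make up 12.7% of the members, while 1.98% of the highest peaks of all genes were called lower and 3.40% higher, and of all tested peaks 1.63% and 1.33%. At an unadjusted p under 0.05, 20 members were lower (36.4%) and 3 higher (5.45%), against 11.7% and 4.94% of all tested peaks. The falls were small, from 0.845-fold at Kcnn1 to 0.712-fold at Kcnc4 on the scale of CPM plus 1. On recovered reads edgeR, run on the same library totals as limma, also called 7 lower and 0 higher, against 1.23% and 1.09% of all tested peaks. It shares limma's scaling and is not a check on it. By contrast, DESeq2, TMM scaling, median centring, scaling on narrow background peaks and limma without trend each called 0 lower, with 0, 4, 0, 0 and 7 members lower at an unadjusted p under 0.05 and 3, 4, 3, 1 and 0 higher. At that unadjusted threshold the share of all tested peaks that was lower was 2.26%, 6.91%, 1.55%, 0.902% and 13.6% in the same order, so the members' shares of 7.27% with TMM and 12.7% without trend are near the background and the others, at 0%, are below it. Of all tested peaks these settings called 0% to 0.0585% lower after adjustment. Quantile normalization called 11 lower, against 1.37% of all tested peaks.

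**Figure D2:**
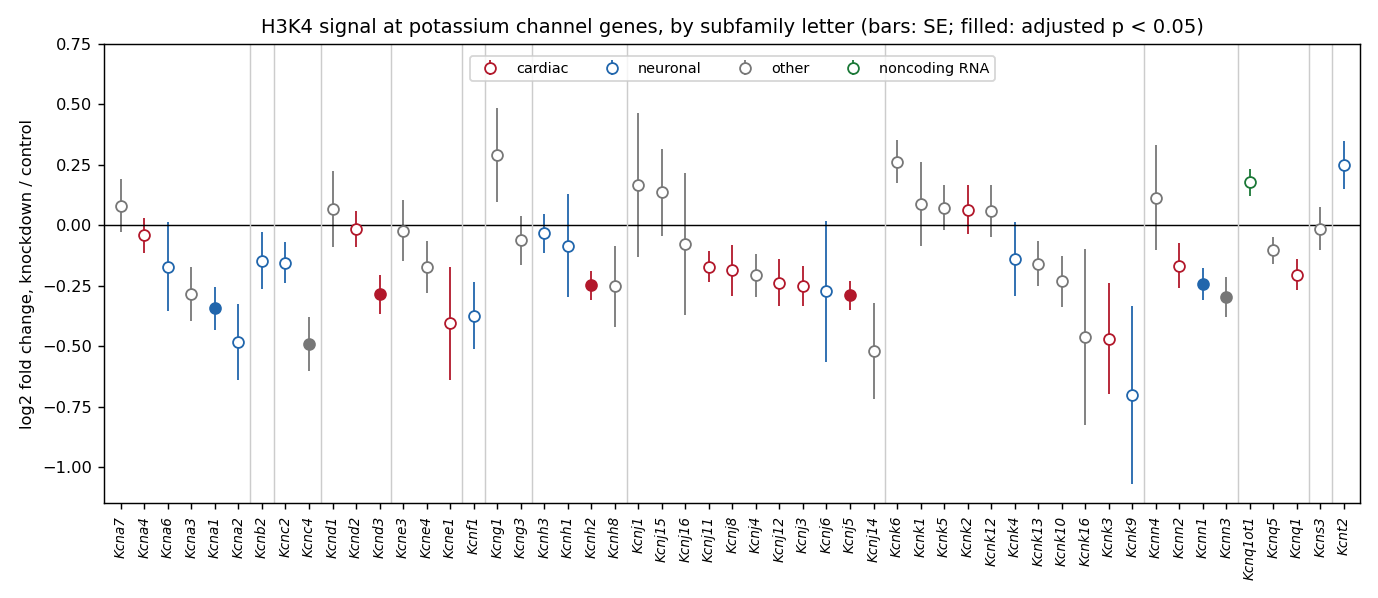
Log2 fold change of H3K4 signal, knockdown over control, on CPM plus 1, for the highest peak of the tested Kcn genes, apart from any not reported here, ordered by subfamily letter, coloured by list and filled where called, with bars of 1 SE of the limma fit. Most members lie below 0, with values from -0.70 at Kcnk9 to 0.29 at Kcng1, and the 7 called genes lie between -0.49 and -0.24.

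Kcnh2 encodes the pore subunit of the rapid delayed rectifier, which repolarises the ventricle. Its highest peak (chr5:24552988-24558610, GRCm39) had 97.7 and 96.0 CPM in the controls, 79.5 and 83.2 CPM after knockdown and 82.7 CPM in the negative control. Both controls stood above the negative control and both knockdown libraries were below both controls, with 1 of them below the negative control. The change in log2 signal was -0.25 (SE 0.06; adjusted p from limma, 0.0040). The call was lost without control library 3 and without knockdown library 3.

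Kcnj5 encodes a subunit of the acetylcholine-activated channel of atrial and pacemaker cells. Its peak (chr9:32251077-32256332) had 98.5 and 97.5 CPM in the controls, 78.5 and 81.7 CPM after knockdown and 127 CPM in the negative control. The groups did not overlap and all 4 values lay below the negative control. The change in log2 signal was -0.29 (SE 0.06; adjusted p from limma, 0.00047), the smallest p of the family, and Kcnj5 was the member that passed whichever library was left out. Kcnj3, which encodes the partner subunit, had 41.0 and 41.4 CPM, then 35.8 and 33.3 CPM, with 107 CPM in the negative control. The libraries separated there too, at a log2 fold change of -0.25 (limma adjusted p = 0.066).

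Kcnd3 encodes another subunit of the transient outward current. Its peak (chr3:105358135-105360609) had 44.1 and 42.8 CPM in the controls, 34.8 and 36.2 CPM after knockdown and 63.9 CPM in the negative control. The knockdown libraries lay below both controls (log2 fold change -0.28, SE 0.08, limma adjusted p = 0.023), and the call was lost when any 1 library was left out. At Kcnd2, which encodes the partner in that current, the log2 fold change was -0.02 (limma adjusted p = 0.95), and at Kcnd1, the other gene of this group, 0.07. Whether Kcnd3 and Kcnd2 differ was not tested.

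Kcnn1 and Kcnn3 encode calcium-activated channels of small conductance. Kcnn1 (chr8:71315455-71319008) had 72.6 and 68.4 CPM in the controls, 59.1 and 59.7 CPM after knockdown and 88.3 CPM in the negative control. The knockdown libraries were both lower (log2 fold change -0.24, SE 0.07, limma adjusted p = 0.019). Kcnn3 (chr3:89427200-89430504) had 42.4 and 40.3 CPM, then 30.9 and 36.3 CPM, with 67.6 CPM in the negative control. Its groups did not overlap either, though the knockdown libraries lay further apart than the controls (-0.30, SE 0.08, limma adjusted p = 0.020). Of the 4 ways to leave out 1 library, the Kcnn1 call held only without control library 4 and the Kcnn3 call only without knockdown library 4. Kcnn2, the member of this group on the cardiac list, had 31.7 and 26.0 CPM, then 23.3 and 27.9 CPM, and its groups overlapped (log2 fold change -0.17, limma adjusted p = 0.35).

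Kcna1, on the neuronal list, and Kcnc4, on neither list, encode voltage-gated channels. Kcna1 (chr6:126620826-126623000) had 34.0 and 35.0 CPM in the controls, 26.4 and 27.5 CPM after knockdown and 106 CPM in the negative control. The knockdown libraries were below both controls, far below the negative control (log2 fold change -0.34, SE 0.09, limma adjusted p = 0.0100), and the call was lost when any 1 library was left out. Kcnc4 (chr3:107366068-107367435) had 19.9 and 20.2 CPM, then 13.8 and 14.2 CPM, with 65.8 CPM in the negative control. It had the largest fall among the called genes (-0.49, SE 0.11, limma adjusted p = 0.0024), at a level below the negative control in all 4 libraries, and the call was lost without knockdown library 3.

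Both the cardiac and the neuronal list had a negative median fold change. In the cardiac list 3 of 14 genes were called lower, 13 of 14 fold changes were negative and the median was -0.22. The neuronal list had 2 of 14 called lower (Kcna1 and Kcnn1), 13 of 14 negative and a median of -0.21. Of those 13, Kcnk9 passed the filter through the controls alone, and without it 12 of 13 were negative with a median of -0.17. Among the 26 other channel genes 2 were called lower (Kcnc4 and Kcnn3), 16 fold changes were negative and the median was -0.07. Of the highest peaks of all genes 1.98% were called lower and 51.9% were negative, and of all tested peaks 1.63% and 69.4%. Summed over the cardiac genes the signal was 637 and 646 CPM in the controls, 552 and 571 CPM after knockdown and 897 CPM in the negative control. Over the neuronal genes it was 278 and 262 CPM, then 232 and 243 CPM, and 615 CPM in the negative control. For both lists both knockdown sums lay below both control sums. The cardiac and neuronal medians turn to 0.02 and 0.03 under median centring, to 0.22 and 0.21 under scaling on narrow background peaks and to -0.01 and 0.01 with DESeq2. They are -0.22 and -0.12 with quantile normalization, -0.19 and -0.13 with a pseudocount of 5 and -0.21 and -0.30 without control library 4. Whether the lists differ was not tested.

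Over the whole family 42 of 55 fold changes were negative (76.4%), against 51.9% of the highest peaks of all genes and 69.4% of all tested peaks. The median was -0.17, against -0.01 and -0.14. Without Kcnk9 and Kcnk16, which passed the filter through the controls alone, 40 of 53 were negative and the median was -0.17. Both knockdown libraries lay below both controls at 32 members and above both at 6. The corresponding shares were 58.2% and 10.9% of the members, 25.9% and 25.6% of the highest peaks of all genes, and 35.4% and 12.1% of all tested peaks. Under the 12 other settings that can move the difference, the members' median lay 0.13 to 0.21 below that of the highest peaks of all genes on the log2 scale. Its own sign was positive under median centring (0.07), scaling on narrow background peaks (0.26) and DESeq2 (0.05).

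**Figure D3:**
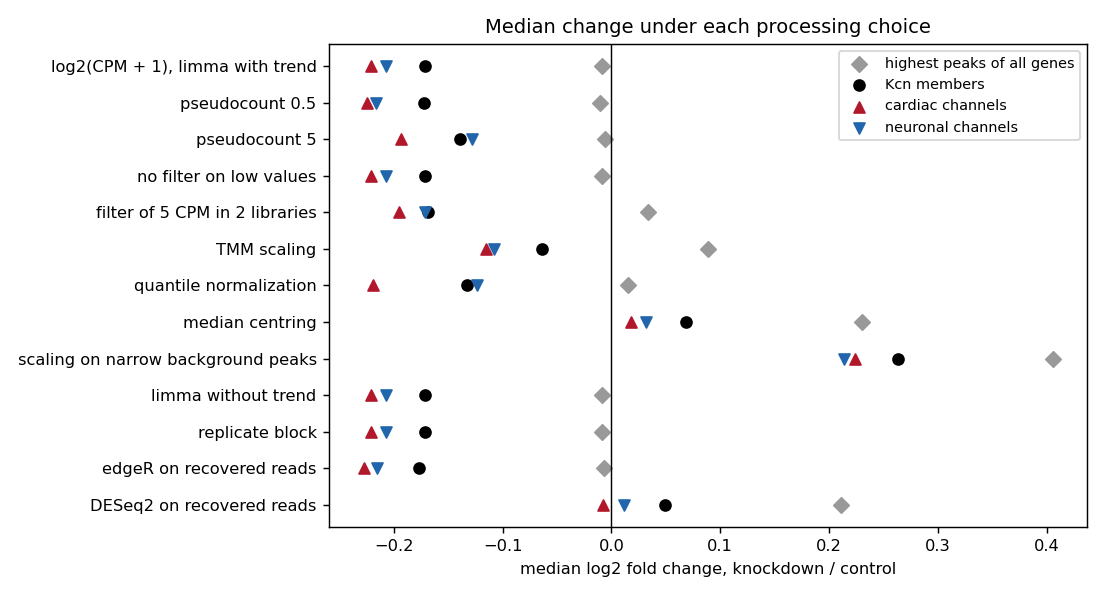
Median log2 fold change, knockdown over control, under each processing setting, for the Kcn members (black circles), the cardiac and neuronal channels (red and blue triangles) and the highest peaks of all genes (grey diamonds). The members' median moves from -0.18 with edgeR to 0.26 with narrow-peak scaling and lies below that of the highest peaks of all genes under each setting plotted.

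Because fold changes followed peak height across the genome, members were also read beside genes of like height. From 5 to 10 CPM the median log2 fold change was -0.13 over all genes and -0.16 over 8 members, and from 10 to 20 CPM -0.06 and -0.17 (9 members). From 20 to 40 CPM the median log2 fold change was 0.02 over all genes and -0.16 over 18 members, from 40 to 80 CPM 0.06 and -0.17 (5 members), and from 80 CPM upwards 0.07 and -0.18 (4 members). Between 1 and 5 CPM the order was the other way, with -0.20 over all genes and -0.08 over 9 members. Kcnk9 and Kcnk16, with means under 1 CPM, are in none of these classes. Height and the ratio to the negative control go together, so peaks of at least 20 CPM were also split by that ratio. Where the log2 ratio of control to negative control lay from -1 to 0, the median was -0.01 over 1350 genes and -0.20 over 17 members, and 4 of the 17 were called lower, against 6.89% of the 1350. Below a ratio of -1 the medians were -0.07 over 236 genes and -0.16 over 6 members, and 1 of the 6 was called lower, against 14.0% of the 236. Above the negative control the medians were 0.06 over 9342 genes and -0.06 over 4 members. These are counts without a test.

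**Figure D4:**
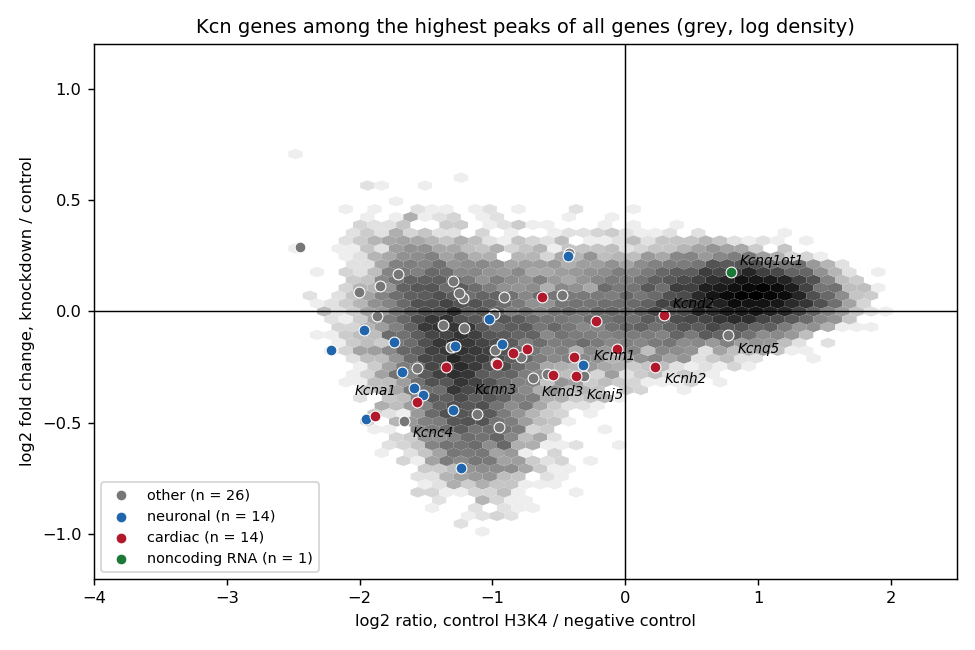
Log2 fold change, knockdown over control, against the log2 ratio of control H3K4 signal to the negative control, for the highest peak of all genes (grey hexagons, log density) and the Kcn members (points coloured by list). Members lie mostly left of the vertical line and below the horizontal line, and Kcnq1ot1 is the member furthest to the right and the only one there with a positive fold change.

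Other voltage-gated genes had negative fold changes that did not pass. Kcnc2, the highest gene of the Kcnc group, went from 36.1 and 38.0 CPM in the controls to 31.7 and 34.7 CPM after knockdown, with 91.4 CPM in the negative control. Both knockdown libraries lay below both controls (log2 fold change -0.15, limma adjusted p = 0.34). Kcnq1 encodes the pore of the slow delayed rectifier, and its peak (chr7:142660760-142664117) had 76.8 and 75.8 CPM in the controls, 64.3 and 67.9 CPM after knockdown and 99.9 CPM in the negative control. Its log2 fold change of -0.20 (SE 0.06) narrowly missed the threshold (limma adjusted p = 0.054).

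Kcna genes were negative at 5 of 6, with a median of -0.23. Kcna4, a cardiac gene and the highest of the group, had 50.4 and 55.0 CPM in the controls and 50.2 and 52.0 CPM after knockdown with overlapping groups (log2 fold change -0.04). Kcna2, expressed along axons, had 9.73 and 8.42 CPM, then 6.34 and 6.05 CPM (-0.48, limma adjusted p = 0.061). Kcnb2 had 16.2 and 16.2 CPM, then 14.7 and 14.4 CPM (-0.15). Among the 4 Kcnh genes Kcnh2 was the 1 called, and the others had log2 fold changes from -0.25 at Kcnh8 to -0.03 at Kcnh3. Subunits that need a partner were mixed, with log2 fold changes of -0.37 at Kcnf1, -0.06 at Kcng3, the higher of the Kcng genes, and -0.01 at Kcns3. The 3 Kcne genes, led by Kcne4 (20.6 CPM in the controls), had a median of -0.17 with 0 calls in limma's test.

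Inward rectifier genes were negative at 9 of 11, with a median of -0.21 and Kcnj5 the 1 call. Kcnj11 and Kcnj8 encode pores of the ATP-sensitive channels. Kcnj11 had 73.0 and 79.6 CPM in the controls, 69.6 and 65.7 CPM after knockdown and 128 CPM in the negative control (log2 fold change -0.17, limma adjusted p = 0.13), and Kcnj8 went from 20.4 and 21.9 CPM to 17.2 and 19.8 CPM (-0.19, limma adjusted p = 0.36). At both, the knockdown libraries lay below both controls. Kcnj12, a gene of the classical inward rectifier of the heart, had a log2 fold change of -0.24 (limma adjusted p = 0.17). The largest negative value of the group, -0.52 at Kcnj14, belonged to a low peak of 5.77 and 4.47 CPM in the controls and 3.15 and 3.35 CPM after knockdown (limma adjusted p = 0.14).

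Leak channel genes were mixed in direction, with 6 of 11 negative, a median of -0.14 and 0 calls in limma's test. Kcnk9 and Kcnk16 passed the filter through the controls alone, and without them 4 of 9 were negative and the median was 0.06. Kcnk13, the highest of the group in the controls, had 28.7 and 30.1 CPM, then 24.3 and 28.2 CPM. Kcnk6, the highest over all 4 libraries, had 30.1 and 26.8 CPM in the controls, 34.9 and 33.7 CPM after knockdown and 38.6 CPM in the negative control. Its knockdown libraries were above both controls (log2 fold change 0.26, SE 0.09, limma adjusted p = 0.079). The cardiac gene Kcnk2, a mechanosensitive leak channel, had overlapping groups (0.06), and Kcnk3 had -0.47 (limma adjusted p = 0.28). Kcnt2, which encodes a sodium-activated channel, had 22.4 and 19.4 CPM, then 24.5 and 25.5 CPM, and was the neuronal gene with both knockdown libraries above both controls (0.25, limma adjusted p = 0.16). The most positive value, 0.29 at Kcng1, came from a peak of 4.22 and 3.63 CPM in the controls and 4.98 and 5.05 CPM after knockdown (limma adjusted p = 0.43), and Kcnj1 had 0.17 at 1.18 and 1.47 CPM in the controls.

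Kcnq1ot1 is an imprinted noncoding RNA transcribed antisense to Kcnq1. The peak assigned to it (chr7:142845844-142850706) lies 182 kb from the highest Kcnq1 peak and had 97.0 and 93.4 CPM in the controls, 107 and 109 CPM after knockdown and 54.4 CPM in the negative control. It stood furthest above the negative control of all members, and both knockdown libraries were above both controls. The log2 fold change of 0.18 (SE 0.06) did not pass (limma adjusted p = 0.059). At the Kcnq1 peak the libraries moved the other way, and whether these differ was not tested.

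Several peaks were assigned to most genes. Of the 59 genes 24 had 1 peak, 26 had 2 to 5 and 9 had 6 or more, with 21 at Kcnj3. Outside the highest peaks 81 peaks of 30 genes passed the filter, 63 of them with negative fold changes and a median of -0.18, close to the 69.4% and -0.14 of all tested peaks. Of these 81, 4 were called lower and 0 higher in limma's test, 3 at Kcnh2 and 1 at Kcnj5, beside 1.63% and 1.33% of all tested peaks. Only 3 of the 138 further peaks had a mean of at least 10 CPM, the highest of them at Kcnh2.

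Kcnh2 was the member with the most called peaks, and also the one with the most tested peaks. Its 12 peaks spanned 33.4 kb, and each passed the filter. All 12 fold changes were negative, 10 peaks had both knockdown libraries below both controls, 2 overlapped and 4 were called. Of all tested peaks 69.4% were negative, 35.4% had both knockdown libraries below both controls and 1.63% were called lower. The second highest (chr5:24531287-24535368, 4081 bp) lay 22.5 kb downstream of the highest one on the minus strand that RefSeq gives for the gene. It had 53.1 and 53.7 CPM in the controls, 43.7 and 43.7 CPM after knockdown and 49.4 CPM in the negative control. The controls stood above the negative control there and the knockdown libraries below it (log2 fold change -0.28, SE 0.08, limma adjusted p = 0.012). A peak between them (chr5:24546817-24549010) had 9.25 and 8.53 CPM, then 6.48 and 4.92 CPM (-0.57, limma adjusted p = 0.021). Another (chr5:24541673-24543208) had 6.57 and 8.05 CPM, then 4.93 and 3.99 CPM (-0.61, limma adjusted p = 0.026). Both of these lay below the negative control in every library. Summed over the 12 peaks the signal was 184 and 187 CPM in the controls, 149.8 and 149 CPM after knockdown and 228 CPM in the negative control. Peaks of 1 gene come from the same libraries and are not replicates.

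**Figure D5:**
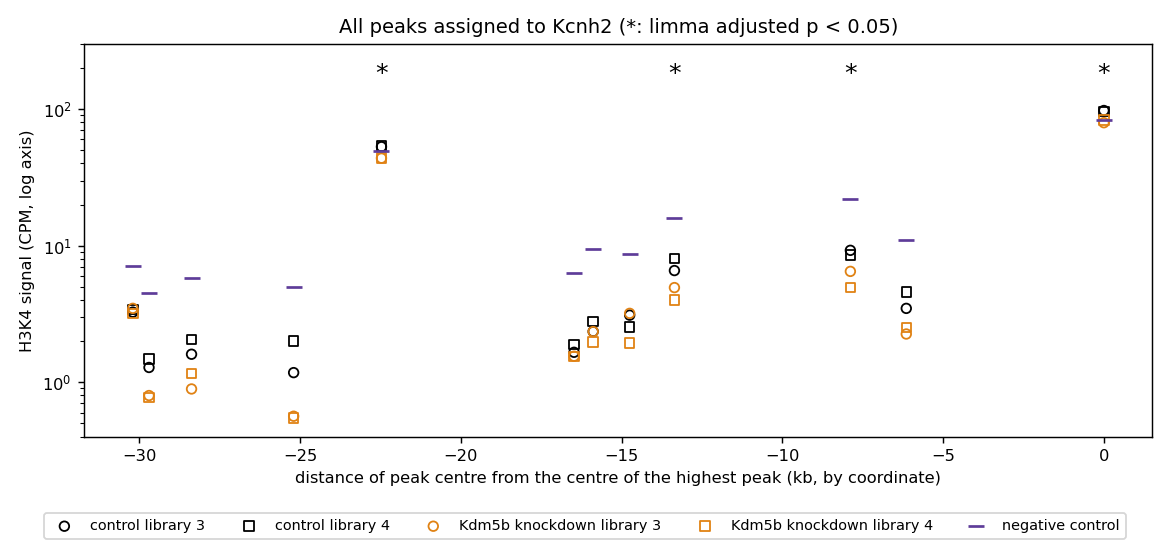
H3K4 signal (CPM, log axis) of the 12 peaks assigned to Kcnh2 against the distance of their centres from the centre of the highest peak (kb, by genome coordinate), with libraries and negative control marked as in the legend and asterisks at the 4 called peaks. The tall peaks at 0 and 22.5 kb away are those with controls above the negative control.

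The filter on low values left members close to its edge on both sides. Just inside it, Kcnk9 had 1.55 and 1.11 CPM in the controls, 0.799 and 0.129 CPM after knockdown and 4.49 CPM in the negative control, which are 29, 21, 17, 4 and 17 reads. Its log2 fold change of -0.70 was the largest of the family in size and did not pass (SE 0.37, limma adjusted p = 0.31). Kcnk16 passed likewise through the controls, with 1.07 and 1.26 CPM against 0.705 and 0.451 CPM. Just outside stood Kcnk7, Kcnv1, Kcnv2 and Kcnj13, each with 1 library at or above 1 CPM. Kcnv1, the neuronal gene left out, had 0.962 and 2.21 CPM in the controls and 0.705 and 0.579 CPM after knockdown.

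Partners of the channels outside the symbol rule were read from a list of 20 genes, all of which were tested. Among them 1 was called higher and 1 lower, 17 fold changes were negative and the median was -0.13. Of the highest peaks of all genes 3.40% were called higher and 1.98% lower and 51.9% were negative, and of all tested peaks 69.4% were negative with a median of -0.14. Kcnab1, which encodes a cytoplasmic subunit of Kcna channels, had 43.6 and 43.4 CPM in the controls, 60.4 and 59.5 CPM after knockdown and 74.0 CPM in the negative control. Its signal rose with no overlap (log2 fold change 0.45, SE 0.07, limma adjusted p = 1.1e-06). Abcc9, which encodes the sulfonylurea receptor that pairs with Kcnj8 and Kcnj11 pores, had 39.3 and 40.7 CPM, then 31.4 and 32.4 CPM, with 44.9 CPM in the negative control. It fell (log2 fold change -0.32, SE 0.08, limma adjusted p = 0.012), and its peak lies 128 kb from that of Kcnj8. Neither the Kcnab1 nor the Abcc9 call held without limma's trend or with narrow-peak scaling, where 0 of all tested peaks were called. Kcnip2, which encodes the partner of Kcnd channels in ventricle, had 7.96 and 7.16 CPM, then 5.69 and 5.67 CPM (-0.36, limma adjusted p = 0.25), and Hcn4, a pacemaker channel gene, had 61.9 and 65.8 CPM, then 58.4 and 56.8 CPM (-0.15, limma adjusted p = 0.26). At both the knockdown libraries lay below both controls without passing.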

How the data were processed

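The authors deposited CPM values of each peak in 5 libraries, in 1 table with positions and gene symbols. Trim Galore and the build GRCm39 are named in the sources, per the submitters' processing notes, while the aligner, the peak caller, the counter and the rule that assigns peaks to genes are not given in the sources used here. Dividing the deposited CPM by the smallest step of their column recovered whole reads for 100% of values (tolerance 1e-06). Since each library has the same total, a peak's level depends on all others, and 0 columns were left out. The H3K4 columns carry numbers that the titles do not, so a column stands for its group.

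Values were analysed as log2(CPM + 1), which understates the change of low peaks. The 58072 of 85275 peaks that reached 1 CPM in 2 or more of the H3K4 libraries were compared with limma 3.58.1 (lmFit and eBayes with trend, 2-sided, 2 against 2 libraries) in R 4.3.3, with Benjamini-Hochberg adjustment over all of them and a threshold of 0.05. An exact permutation test of 1 peak cannot go below 0.33 with 2 against 2 libraries and was not used. On the recovered reads edgeR 4.0.16 (quasi-likelihood, library totals without TMM factors) called 634 peaks higher and 712 lower. DESeq2 1.42.0 was run on the same reads with its own scaling. The code was tested on simulated data. Also tried were a pseudocount of 0.5 or 5, the filter dropped or raised to 5 CPM, TMM, quantile, median and narrow-peak scaling, no trend, a block, each library left out, and the widest or the mean of all peaks of a gene.

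Genes named are those called, the tested cardiac and neuronal genes by value or range, the highest of each subfamily letter, and the 5 largest rises and 5 largest falls. Kcnd1, Kcnk16 and the 4 untested members were named beside these after their values were seen. Some tested members stay in the counts and are not reported here by name. The members and lists were chosen with earlier results of these data known. Promoter windows are RefSeq's (GRCm38.p6), and CpG and motifs were counted in Python 3.11.15.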

Additional observations from a re-analysis of the deposited data

How the results depend on the processing

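The count of members called lower, 7 with the settings reported, became 12 with a filter of 5 CPM (5.61% of all peaks tested there), 11 with quantile normalization (1.37%) and 0 with TMM scaling, median centring, scaling on narrow background peaks, limma without trend or DESeq2, which gave 11 members no adjusted p. It fell with any 1 library left out, as did the share of all tested peaks called lower. In these fits 1 group holds 1 library, and the spread is that of the other group. The count called higher, 0, became 2 with the 5 CPM filter (Kcnk6 and Kcnq1ot1), where 5.71% of peaks were called higher. With the column number as a block, 14 members were called lower and 2 higher, against 3.92% and 2.72% of all tested peaks. The deviations of same-numbered libraries correlated at 0.12 over 2 pairs, and the labels state no pairing, so whether the numbers mark a shared batch is unknown. The cause of these differences was not tested. The members' median log2 fold change of -0.17 became -0.064 with TMM, -0.13 with quantile normalization, 0.068 with median centring, 0.26 with narrow-peak scaling and 0.049 with DESeq2, and ranged from -0.22 to -0.14 with 1 library left out. The median of all tested peaks moved by 0.14 with quantile normalization, 0.24 with median centring, 0.31 with narrow-peak scaling and 0.15 with DESeq2. Narrow-peak scaling turned the sign at Kcna1 (0.10), Kcnd3 (0.16), Kcnh2 (0.20), Kcnj5 (0.16), Kcnn1 (0.21) and Kcnn3 (0.15). The members' median log2 ratio to the negative control of -1.02 became -0.87 with a pseudocount of 5, 0.28 with median centring and 0.21 with TMM scaling of 5 libraries. Peaks of few reads limit Kcnk9, Kcnk16 and the untested members. Leaving out Kcnk9 and Kcnk16, which passed the filter through the controls alone, was chosen after seeing the data and changed neither count.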
